A study of Mus musculus with 15 samples.

Results

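Intermediate filaments are the third cytoskeletal system beside actin and microtubules, and cells of different kinds build them from different members of 1 protein family. The 7 genes described here were taken from a named list of that family, out of 38355 genes in the authors' deposited table. They are the vimentin gene Vim, the nestin gene Nes, the A-type lamin gene Lmna, the type II keratin genes Krt7 and Krt8 and the type I keratin genes Krt18 and Krt19. The list was drawn up from the fold changes and calls of this same table, so the members' own values are a description and carry no test. RNA was sequenced from 15 samples of mouse embryonic stem cells, 3 replicates in each of 5 groups. The wild types are E14-WT, the line E14TG2a, and Ezh2-WT, which is Ezh2 fl/fl and labelled wild type. Ezh2-KO, Suz12-KO and Ring1A+B-DKO are null for Ezh2, for Suz12, and for both Ring1a and Ring1b. All 5 groups were grown on gelatin in medium with N-2 and B27 supplements, leukemia inhibitory factor, the MEK inhibitor PD0325901 at 1 µM and the GSK3 inhibitor CH99021 at 3 µM, a combination known as 2i. Ezh2-KO was compared with Ezh2-WT, and the other groups with E14-WT. Ring1A+B-DKO has no wild type of its own here, the parent of Suz12-KO is not given in the labels, and neither is the number of clones behind each line, so a knockout and a difference between lines cannot be told apart there.

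The authors' deposited table holds, for each gene and comparison, 1 log2 fold change and 1 call, without values per sample, errors, p-values or depth. No difference can therefore be set against the spread between replicates. Every fold change comes from that table and has the knockout, or Ezh2-WT, over its control, with the sign of the deposited column turned in the 3 comparisons with E14-WT. The words rose and fell are kept for genes the authors called. Genes without a value were taken to have had no reads in the groups compared. All 12 genes of an embryonic stem cell list, Pou5f1, Sox2 and Nanog among them, had values in all 4 comparisons. Of the deleted genes, Ring1, which encodes Ring1A, fell in Ring1A+B-DKO, at a log2 fold change of -2.03. Rnf2, which encodes Ring1B, stood at 0.17 there, Suz12 at -1.04 in Suz12-KO and Ezh2 at -0.14 in Ezh2-KO, none of them called. The labels do not say which exons are missing, so these 3 values check the labels little.

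Vimentin forms the filaments of mesenchymal cells and of many cells in culture, and nestin assembles with it in neural progenitors. Keratins form filaments only as pairs of a type I and a type II chain. Krt8 with Krt18 is the pair of simple epithelia and the first to appear in the mouse embryo, in the trophectoderm, while Krt7 and Krt19 join it in ducts, trophoblast and other simple epithelia. Lamins line the inner nuclear membrane, and A-type lamins are scarce in embryonic stem cells and gain with differentiation. Polycomb repressive complex 2, which holds Ezh2 and Suz12, methylates histone H3. Polycomb repressive complex 1, which holds Ring1A or Ring1B, ubiquitinates histone H2A, and both are known for holding developmental genes silent at CpG-rich promoters.

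Vim and the keratins stood at opposite ends of the table in Ring1A+B-DKO. Vim had the lowest of all 19693 values there, a log2 fold change of -3.57 in the authors' deposited table, or 11.8-fold lower than in E14-WT. Krt18 rose to 3.10, or 8.59-fold, the 14th highest value. Krt8 rose to 2.62, or 6.14-fold, the 45th highest, and Krt7 to 1.64, or 3.12-fold. These 4 of 7 members were called, 3 higher and 1 lower, beside 3.00% of all genes with a value (2.38% called higher and 0.620% lower). The members were picked from this contrast, so nothing is read from that share. In Suz12-KO the authors called 1 member, Vim, higher at 1.44, beside 0.200% of 18498 genes, 0.0865% higher and 0.114% lower. In Ezh2-KO they called 0 of 7, beside 0.177% of 18097 genes, 0.0442% higher and 0.133% lower. Between the wild-type lines they called 1, Vim, lower in Ezh2-WT at -1.92, beside 0.607% of 18604 genes, 0.360% higher and 0.247% lower. By size alone, 1 or more on the log2 scale in either direction was reached by 1 member in Ezh2-KO and 1 in Suz12-KO, then 6 in Ring1A+B-DKO and 1 in Ezh2-WT, beside 0.674%, 0.822%, 8.10% and 2.32% of all genes.

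**Figure D1:**
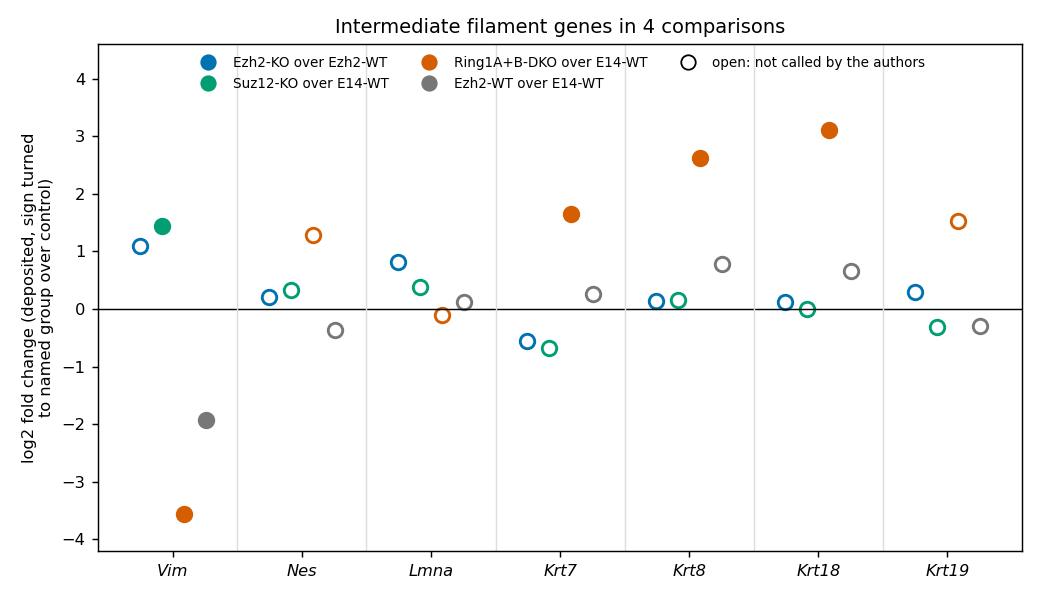
Log2 fold change (vertical axis) of each of the 7 genes (horizontal axis) in 4 comparisons, told apart by colour. Filled points were called by the authors and open points were not, and errors are not used here. Vim lies at -3.57 in Ring1A+B-DKO and at 1.44 in Suz12-KO, while Krt7, Krt8 and Krt18 lie between 1.64 and 3.10 in Ring1A+B-DKO.

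The start-site windows of the 4 called members are shown because the study asked how Polycomb complexes relate to CpG islands, and because Krt8 and Krt18 lie side by side and both rose. Each window runs from 250 bases before to 50 bases after a RefSeq start site in GRCm38.p6 and is written 5′ to 3′ on the strand of the gene. Capitals mark each CG dinucleotide and each TATAAA. The windows are chr2:13574061-13574360 on the plus strand for Vim, chr15:101412153-101412452 on the plus strand for Krt7, chr15:102004293-102004592 on the minus strand for Krt8 and chr15:102027966-102028265 on the plus strand for Krt18.
Vim: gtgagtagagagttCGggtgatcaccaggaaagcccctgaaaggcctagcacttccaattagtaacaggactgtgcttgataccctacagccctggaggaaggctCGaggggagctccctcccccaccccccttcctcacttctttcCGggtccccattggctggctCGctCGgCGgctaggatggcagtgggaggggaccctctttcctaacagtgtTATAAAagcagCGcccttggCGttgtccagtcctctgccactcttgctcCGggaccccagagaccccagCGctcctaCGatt
Krt7: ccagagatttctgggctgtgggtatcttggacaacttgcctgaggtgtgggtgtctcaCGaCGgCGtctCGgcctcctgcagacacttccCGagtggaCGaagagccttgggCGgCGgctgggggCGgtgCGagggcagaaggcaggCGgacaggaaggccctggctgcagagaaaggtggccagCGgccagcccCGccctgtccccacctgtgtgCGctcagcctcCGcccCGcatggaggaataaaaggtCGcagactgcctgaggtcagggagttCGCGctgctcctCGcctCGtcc
Krt8: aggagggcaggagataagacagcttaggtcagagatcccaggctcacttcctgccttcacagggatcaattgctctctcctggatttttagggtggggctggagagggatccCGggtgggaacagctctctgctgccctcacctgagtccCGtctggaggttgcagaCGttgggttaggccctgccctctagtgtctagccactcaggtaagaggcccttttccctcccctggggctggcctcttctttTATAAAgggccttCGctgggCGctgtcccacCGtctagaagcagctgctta
Krt18: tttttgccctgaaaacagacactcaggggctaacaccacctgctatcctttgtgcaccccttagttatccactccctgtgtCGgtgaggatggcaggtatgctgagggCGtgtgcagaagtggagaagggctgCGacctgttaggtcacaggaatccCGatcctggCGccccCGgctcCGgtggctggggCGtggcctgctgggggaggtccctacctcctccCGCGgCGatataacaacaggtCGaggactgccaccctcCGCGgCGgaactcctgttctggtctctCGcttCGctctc

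The window of Vim held 11 CG dinucleotides and that of Krt8 held 6, against 17 in Krt18 and 21 in Krt7. Over all 32851 windows of the RefSeq table, 58.6% held fewer than Vim, 43.6% fewer than Krt8, 68.6% fewer than Krt18 and 75.2% fewer than Krt7. Nes held 18, and the 2 windows of Lmna held 1 and 7. A window was found for 6 of the 7 members, Krt19 being the exception. Among genes with a value in Ring1A+B-DKO, using the first window listed for each, the median was 19 over 12624 genes, 20 over the 342 that rose and 17 over the 87 that fell. Krt8 therefore lay below the lower quartile of the genes that rose, which was 12, and Krt18 and Krt7 lay within their middle range, whose upper quartile was 28.

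Short motifs were searched on both strands, with positions counted from the start site. TATAAA, the letters of the TATA box, was found in Vim with its first base at -32. In Krt8 it was found at -1 on the strand of the gene and at -3 on the other strand, the 2 matches overlapping. The GENCODE gene models of Vim, Krt7, Krt8 and Krt18 begin further upstream than the RefSeq starts used here, those of Vim and Krt7 before their windows. The CG counts and the positions within the promoter therefore depend on the annotation. TATAAA was in neither the Krt18 nor the Krt7 window, and in 13.6% of all windows. CCAAT was found in Vim at -196 and, on the other strand, at -94, against 37.4% of all windows. GGGCGG was found in Krt7 at -141 and -128, and on the other strand at -56 and -24, against 35.7% of all windows. Among the members not printed, GGGCGG was found on the other strand in Nes at -73 and -62 and in 1 Lmna window at -52. The other Lmna window held CCAAT at -131. These are matches of letters in a window and not sites of a factor.

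**Figure D2:**
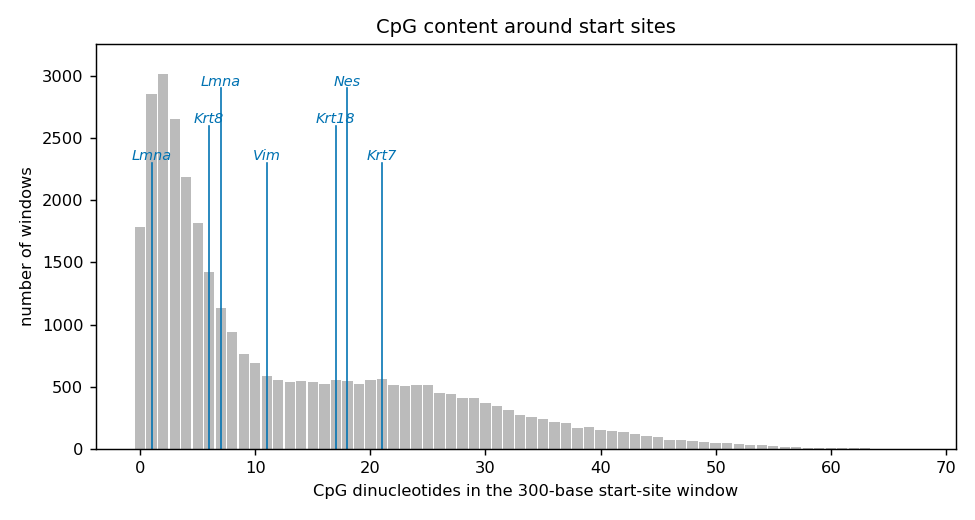
Number of start-site windows (vertical axis) by the number of CG dinucleotides in their 300 bases (horizontal axis), over 32851 windows. Blue lines mark the members, Lmna with 2 windows. The windows of Krt18, Nes and Krt7 hold 17, 18 and 21, and those of Krt8 and Vim hold 6 and 11.

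Vim (ENSMUSG00000026728, chromosome 2, 13573927 to 13582826 in GRCm38, plus strand) was the 1 member called in 3 of the 4 comparisons. The authors' deposited table gives it log2 fold changes of 1.09 in Ezh2-KO and 1.44 in Suz12-KO, then -3.57 in Ring1A+B-DKO and -1.92 in Ezh2-WT over E14-WT. It was the 8th highest of 18498 values in Suz12-KO, or 2.71-fold higher than in E14-WT. It was the 28th highest of 18097 in Ezh2-KO, 2.12-fold higher than in Ezh2-WT and not called. Of the 71 genes with an absolute log2 fold change from 1 to 1.2 in Ezh2-KO, the authors called 4. Vim was also the 12th lowest of 18604 values between the wild-type lines, 3.79-fold lower in Ezh2-WT, a difference with no knockout in it that was larger than either value in a Polycomb repressive complex 2 knockout.

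The 5 lines can be placed on 1 scale by taking E14-WT as 0 and, for Ezh2-KO, adding its value over Ezh2-WT to that of Ezh2-WT over E14-WT. This joins separately fitted values of the authors' deposited table and has no error, so it cannot be said which neighbours in the order differ. On that scale Vim was highest in Suz12-KO at 1.44, followed by E14-WT at 0, Ezh2-KO at -0.83, Ezh2-WT at -1.92 and Ring1A+B-DKO at -3.57. The span was 5.01 on the log2 scale, or 32.1-fold. Ezh2-KO thus stood above its own control and below E14-WT. With Ezh2-WT in place of E14-WT as the control, Suz12-KO would stand at 3.36. Krt18 had the next widest span, 3.11, then Krt8 at 2.62, Krt7 at 2.31, Krt19 at 1.84, Nes at 1.66 and Lmna at 1.03. Of the 7 members, 5 were highest in Ring1A+B-DKO, the exceptions being Vim and Lmna.

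Few genes carried calls like those of Vim in the authors' deposited table. In Suz12-KO 37 of 18498 genes were called, in Ring1A+B-DKO 591 of 19693 and in Ezh2-WT 113 of 18604. Dusp27 and Vim were the 2 genes called in each of these. Ccnd1 and Mir5099, like Vim, rose in Suz12-KO and were called lower in Ezh2-WT. Of 9 genes called in both Suz12-KO and Ring1A+B-DKO, which share the E14-WT libraries, Vim was the 1 that rose in the first and fell in the second. The opposite held for 2, Grb10, an imprinted gene for a growth inhibitor, and Lrp2, a gene for an endocytic receptor. With no call required, Vim was also the 1 gene at or past an absolute value of 1 with its signs in all 4 comparisons. At 0.58 there were 9, among them Tuba1a, an alpha-tubulin gene, and Id3, a gene for an inhibitor of helix-loop-helix factors. These genes were found by their values, and the comparisons share controls.

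By Euclidean distance over the 4 values, the 5 nearest of 13456 genes to Vim, gene models left out, were Tubb3, Mylpf, Olig2, Notch4 and Tuba1a, at distances of 1.86, 1.91, 2.03, 2.43 and 2.44. All 5 stood on the same side of 0 as Vim in all 4 comparisons. They stood nearer to 0 than Vim, except Olig2 in Ezh2-KO, at 1.17. The 5 were picked by these same values, so their likeness to Vim is a description. Tubb3, the neuronal beta-tubulin gene, stood at 0.58 in Ezh2-KO, 0.99 in Suz12-KO and -0.98 in Ezh2-WT in the authors' deposited table, and fell to -2.10 in Ring1A+B-DKO. Tuba1a stood at 1.00, 0.89 and -0.80 and fell to -1.47. Mylpf, a myosin light chain gene of fast muscle, fell to -2.87, Olig2, an oligodendrocyte lineage factor, to -2.37, and Notch4, a Notch receptor gene, to -1.55. None of the 5 was called outside Ring1A+B-DKO. Tuba1a has near-identical copies, Tuba1b at 98.3% identity among them, which stood at -0.89 in Ring1A+B-DKO without a call, so its value is uncertain. Tubb3 and Notch4 overlap other annotated genes.

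**Figure D3:**
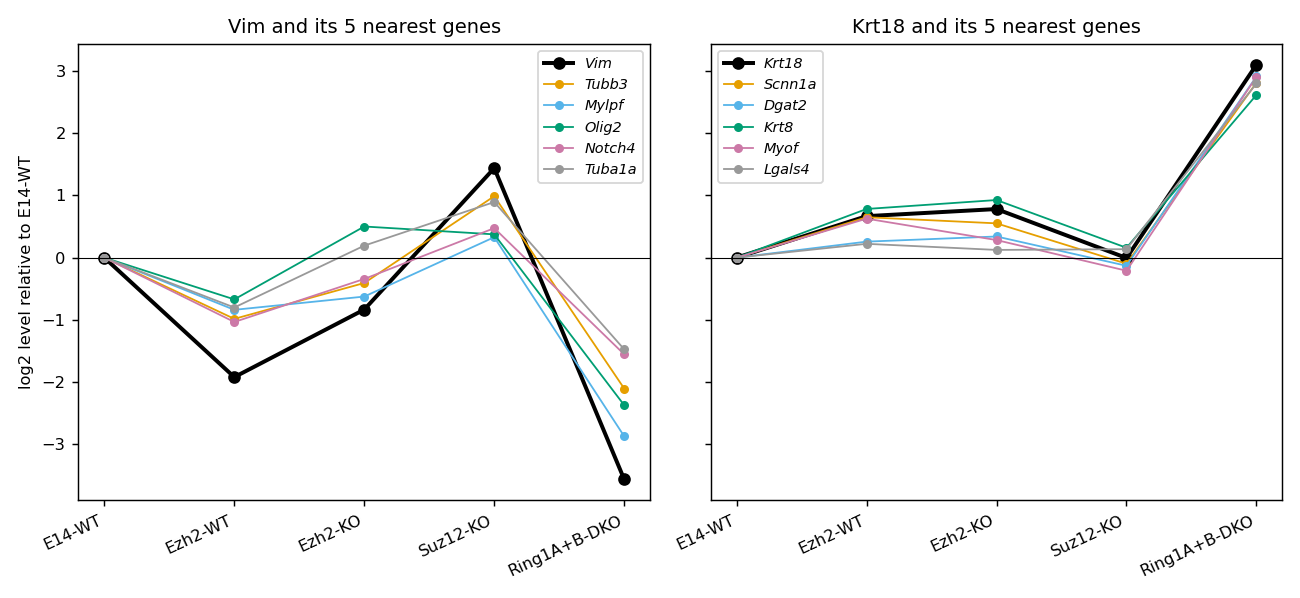
Log2 level relative to E14-WT (vertical axis) in the 5 lines (horizontal axis) for Vim and its 5 nearest genes, and for Krt18 and its 5 nearest genes. Lines join values of 1 gene to guide the eye, and the Ezh2-KO point is the sum of 2 deposited values. Vim spans 5.01 and runs from 1.44 in Suz12-KO to -3.57 in Ring1A+B-DKO, while Krt18 stands between -0.01 and 0.78 until it reaches 3.10 in Ring1A+B-DKO.

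Krt8 (ENSMUSG00000049382, chromosome 15, 101996698 to 102004482, minus strand) and Krt18 (ENSMUSG00000023043, chromosome 15, 102028180 to 102032027, plus strand) are partners in the filament and neighbours in the genome. They point away from each other across 23.7 kb. In the authors' deposited table Krt8 stood at 0.14 in Ezh2-KO and 0.16 in Suz12-KO, then 2.62 in Ring1A+B-DKO and 0.78 in Ezh2-WT. Krt18 stood at 0.11, -0.01, 3.10 and 0.67 in the same order. The values of the pair therefore lay within 0.53 of each other by Euclidean distance, and each was among the other's 5 nearest genes. The pair was listed for its rise in Ring1A+B-DKO, which enters that distance, so the closeness is a description. Both were higher in Ezh2-WT than in E14-WT without a call, where 96.9% of genes lay below Krt8 and 95.3% below Krt18. All 57 genes with an absolute value from 2.5 to 4 in Ring1A+B-DKO were called, these 2 and Vim among them.

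Within 50 kb of the pair 1 other gene had a value, the translation factor gene Eif4b, which was not called. It stood at -0.55 in Ring1A+B-DKO and -0.44 in Ezh2-WT. Krt78, on the other side of Krt8 and the 1 further keratin gene within that distance, had no value in any comparison. Near Vim, the methyltransferase gene Trdmt1 was the 1 gene with a value within 50 kb, at -0.07 in Ring1A+B-DKO and 0.40 in Suz12-KO. Near Krt7 there were 2, Krt80 at 1.19 and Krt87, which is not on the keratin lists, at 0.70 in Ring1A+B-DKO, neither called. Over all 7 members, and leaving out Krt8 and Krt18 themselves, 0 neighbours were called in any comparison of the authors' deposited table. Each member had from 0 to 5 such neighbours with a value, and 0.177% to 3.00% of all genes were called by comparison. In so few genes 0 calls lies near that share.

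The nearest gene to both Krt8 and Krt18 over the 4 values was Scnn1a, a subunit gene of the epithelial sodium channel, at distances of 0.43 and 0.37. It rose to 2.81 in Ring1A+B-DKO, per the authors' deposited table. Next to Krt18 came Dgat2, an enzyme of triglyceride synthesis, which rose to 2.91, then Krt8, then the membrane repair gene Myof at 2.91 and the galectin gene Lgals4 at 2.80. Next to Krt8, after Krt18, came Arl4d at 2.38, Arhgef5, a guanine nucleotide exchange factor gene, at 2.36, and Ldhc, the lactate dehydrogenase gene of testis, at 2.16. All 7 genes other than the pair were called in Ring1A+B-DKO alone.

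Krt7 (ENSMUSG00000023039, chromosome 15, 101411043 to 101430313, plus strand) rose to 1.64 in Ring1A+B-DKO, per the authors' deposited table. It stood at -0.56 in Ezh2-KO and -0.67 in Suz12-KO, where 3.62% and 2.5% of genes lay below it, and at 0.25 in Ezh2-WT. It was the 1 member below -0.5 in both of those knockouts, which share no library, and it was called in neither. Krt19 (ENSMUSG00000020911, chromosome 11, 100140810 to 100148665, minus strand) stood at 1.53 in Ring1A+B-DKO, 2.90-fold higher, without a call. Its values elsewhere were 0.30 in Ezh2-KO, -0.31 in Suz12-KO and -0.29 in Ezh2-WT. The last 2 values are shared exactly with other genes, as can happen where reads are few. Krt7 had the lowest value among the members called higher and Krt19 the highest among those not called, but size alone does not set the call. The smallest absolute value called in Ring1A+B-DKO was 1.00, and of the 640 genes with an absolute value from 1.25 to 1.75 in Ring1A+B-DKO, 35.2% were called.

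Nes (ENSMUSG00000004891, chromosome 3, 87971078 to 87980451, plus strand) stood at 1.29 in Ring1A+B-DKO, per the authors' deposited table, without a call, where Vim fell. Its other values were 0.21 in Ezh2-KO, 0.32 in Suz12-KO and -0.37 in Ezh2-WT. These 3 had the signs of Vim and were smaller, and the value in Ring1A+B-DKO had the opposite sign. Lmna (ENSMUSG00000028063, chromosome 3, 88480147 to 88509956, minus strand) had its largest value in Ezh2-KO, at 0.81, the 100th highest of 18097 and not called. It stood at 0.38 in Suz12-KO, 0.11 in Ezh2-WT and -0.11 in Ring1A+B-DKO. Lmnb2, a B-type lamin gene, fell in Ring1A+B-DKO, to -1.03, and Lmnb1 stood at -0.34. Of 16 partners of the lamina and enzymes that process lamins, 0 rose and 1 fell there, beside 2.38% of all genes called higher and 0.620% lower. That was Fntb, which encodes the beta subunit of the farnesyltransferase that modifies lamins, at -1.13, and it overlaps 3 other genes. The median of these 16 was -0.05 beside 0.07 over all genes. Syne3, which links the nuclear envelope to filaments, stood at 1.41 and was not called.

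**Figure D4:**
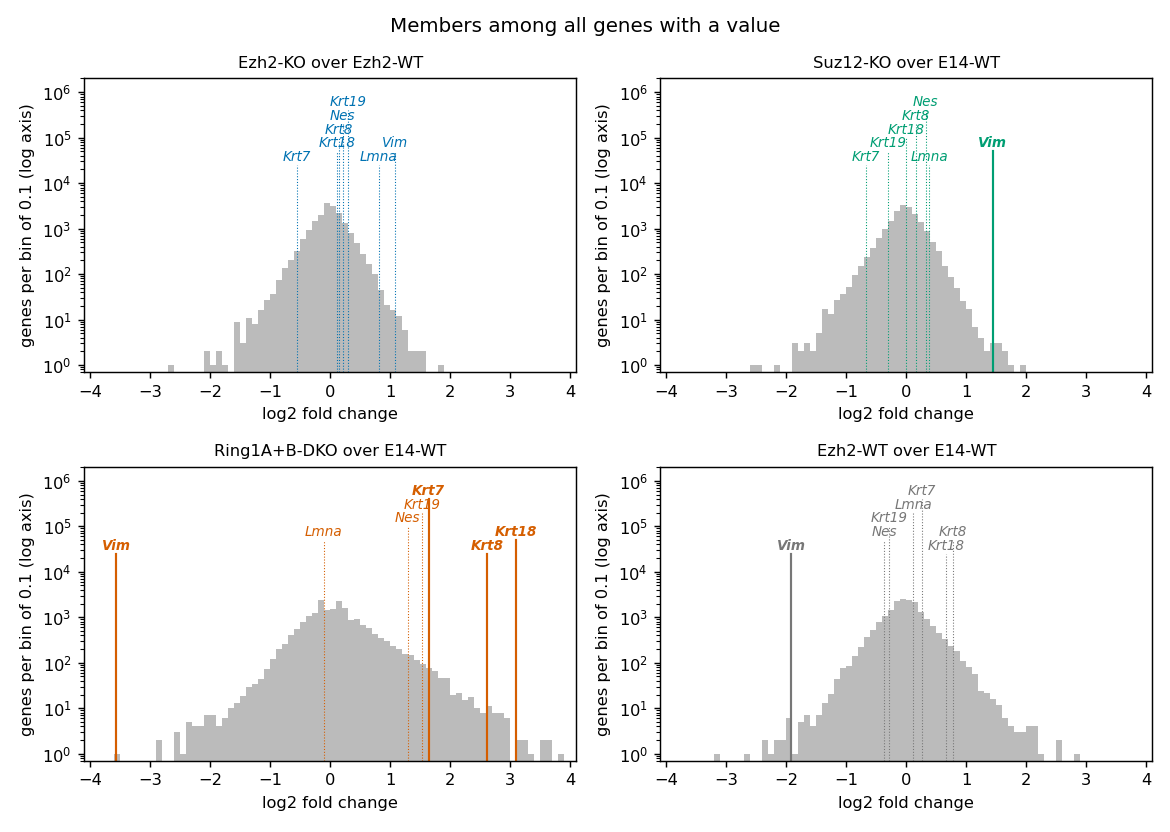
Number of genes per bin of 0.1 (vertical log axis) by log2 fold change (horizontal axis) in each comparison, with the 7 members marked. Solid lines and bold names were called and dotted lines were not, and 4 genes above 4 in Ring1A+B-DKO lie outside the axis. Vim is the lowest gene in Ring1A+B-DKO at -3.57, where Krt8 and Krt18 lie at 2.62 and 3.10.

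Many keratin genes had no value in these cells, as did many genes of the whole table. Of 38355 genes, 18097 to 19693 had a value, depending on the comparison. Of 51 keratin genes listed, 50 were matched in the authors' deposited table and 28 had no value in any comparison, Krt1, Krt14 and Krt6a of stratified epidermis among them. Another 6 had a value in Ring1A+B-DKO alone, at most 0.20, which under the reading of missing values puts reads in that line and none in the others. Such a gene can only stand above 0. Values in all 4 comparisons were held by 11, the 4 member keratins and Krt10, Krt13, Krt16, Krt17, Krt20, Krt42 and Krt80. None of these 7 was called anywhere, beside 0.177% to 3.00% of all genes called by comparison. Krt17, a keratin of stressed and embryonic epidermis, stood above 0 in all 4, at 0.77 in Ezh2-KO and 0.98 in Suz12-KO, then 1.45 in Ring1A+B-DKO and 0.59 in Ezh2-WT. Krt42 stood at 0.84, 1.02, -0.09 and 0.21 in that order. The median in Ring1A+B-DKO was 0.18 over 11 type I keratins with a value and 0.18 over 8 of type II, beside 0.07 over all genes. Over values that no other gene shares, these medians were 1.45 for 5 genes and 1.64 for 3, sets that hold the members by which the list was chosen. The 1.64 is the value of Krt7 itself.

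The other cytoplasmic filament genes had no call besides Vim. Depending on the comparison, 0.177% to 3.00% of all genes were called. The list of type III, type IV and lens filament genes had 12 members, all with a value in Ring1A+B-DKO, where its median was 0.09. Des, the muscle filament gene desmin, stood at 0.91 there and Nefl, the light neurofilament gene, at -0.23. Synm, the gene for synemin, which assembles with vimentin and desmin, stood at -1.06 in Ezh2-KO and 0.78 in Ezh2-WT. Nefl stood at 0.61 in Suz12-KO. In that comparison the list median was -0.04 over all values and 0.33 over values that no other gene shares.

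Some genes that anchor keratin filaments also rose in Ring1A+B-DKO. Values there are held by the authors' deposited table for 15 linker and desmosome genes, of which 3 rose and 0 fell, with 12 above 0, beside 2.38% of all genes called higher, 0.620% called lower and 55.4% above 0. Dsc2, a desmosomal cadherin gene, rose to 1.93, Dsp, the desmoplakin gene whose product ties keratins to desmosomes, to 1.42, and Plec, the plectin gene whose product links several filament types, to 1.09. The list median was 0.53 beside 0.07 over all genes. Pkp3, a plakophilin gene, stood at 1.07 and Jup, the plakoglobin gene, at -0.55. The list had 0 calls in the other 3 comparisons, with medians of -0.04 in Ezh2-KO, -0.20 in Suz12-KO and 0.14 between the wild-type lines. Over all genes 0.177%, 0.200% and 0.607% were called there, in that order. Plec stood at 1.05 and Itgb4, an integrin gene of hemidesmosomes, at 1.10 in Ezh2-WT.

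Of 15 epithelial genes in the authors' deposited table, 5 rose and 0 fell in Ring1A+B-DKO, beside 2.38% of all genes called higher and 0.620% lower. All 15 stood above 0 there, with a median of 0.75 beside 0.07 over all genes, 55.4% of which stood above 0. Esrp1, a splicing regulator of epithelia, rose to 2.57, and Grhl2, a transcription factor of epithelia, to 2.27. The claudin gene Cldn7 rose to 1.82, Epcam, an adhesion gene, to 1.38 and Spint2, a protease inhibitor gene, to 1.20. Cdh1, the E-cadherin gene, stood at 0.41. Of 13 mesenchymal genes with a value 0 were called, beside 3.00% of all genes, with a median of 0.36. In so few genes 0 calls lies near that share. Cdh2, the N-cadherin gene, stood at -0.05, Fn1, the fibronectin gene, at -0.56, and Twist1, Zeb2 and Mmp2 at 1.07, 1.13 and 1.03. Zeb1, a transcription factor gene of the mesenchymal state, had the lowest value of the list, -0.90. In Suz12-KO, where Vim rose, the 9 mesenchymal genes with a value gave 0 calls, beside 0.200% of all genes, and a median of -0.04, with Fn1 at -0.70. Over values that no other gene shares, the mesenchymal median was -0.56 for 5 genes in Suz12-KO and 0.16 for 6 genes in Ring1A+B-DKO.

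Of 20 actin and tubulin genes in the authors' deposited table, 1 rose and 2 fell in Ring1A+B-DKO, and the median was -0.33. The 2 were Tubb3 and Tuba1a, which were also among the 5 genes nearest to Vim. Over all genes 2.38% rose and 0.620% fell. Tpm1, a tropomyosin gene, rose to 1.15. The smooth muscle light chain gene Myl9 stood at 1.39 and Tpm2 at 1.38, neither called. Actb, the beta-actin gene, stood between -0.13 and 0.17 in all 4 comparisons. In Suz12-KO and Ezh2-KO the list had 0 calls, beside 0.200% and 0.177% of all genes, with medians of -0.15 and 0.19.

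**Figure D5:**
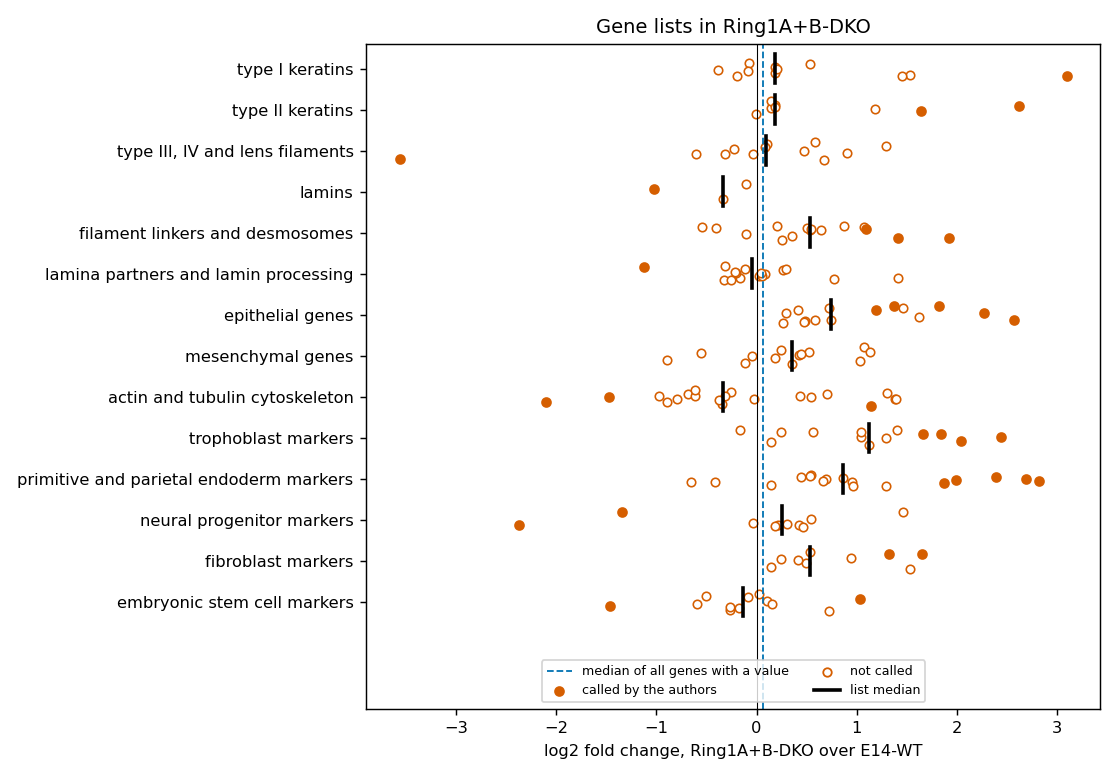
Log2 fold change in Ring1A+B-DKO over E14-WT (horizontal axis) of each gene with a value in 14 lists (vertical axis). Filled points were called, black bars are list medians, and the dashed line is the median of all genes at 0.07. All 15 epithelial genes lie above 0, and 12 of 15 linker and desmosome genes do, with Vim alone at -3.57 in its list.

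Some markers of other cell types that carry these filaments also rose in Ring1A+B-DKO, and in RNA from whole cultures more cells of a type and more RNA per cell cannot be told apart. The deposited table gives no levels, so a summed level per group could not be had. The counts of these markers stand beside 2.38% of all genes called higher, 0.620% called lower and a median of 0.07 there. Of 13 trophoblast markers with a value, 4 rose and 0 fell, with a median of 1.12. They were Peg10 at 2.44, Tfap2a at 2.04, Esx1 at 1.85 and Gata2 at 1.67, while Cdx2 stood at 0.57, Elf5 at 0.24 and the giant cell gene Prl3d1 had no value. Of 17 primitive and parietal endoderm markers 5 rose and 0 fell, with a median of 0.86. The transcription factor genes Gata6 and Gata4 rose to 2.69 and 2.39, the basement membrane collagen genes Col4a1 and Col4a2 to 2.00 and 2.83, and Dab2 to 1.87, while Sox17 and Foxa2 stood at 0.53 and 0.70. The 2 endoderm markers below 0 were the laminin genes Lamc1, at -0.66, and Lama1, at -0.42. Both cell types make Krt8 and Krt18, and the part of these markers in the keratin values was not tested. In Ezh2-WT, where Krt8 and Krt18 stood at 0.78 and 0.67, the authors called 1 of 13 trophoblast markers higher, Gata2, at 2.58. They also called 1 of 14 endoderm markers higher, Sparc, a gene for a matrix protein, at 1.07. Of all genes 0.360% were called higher there and 0.247% lower. The list medians were 0.01 and 0.07, with 7 and 9 markers above 0. In Ezh2-KO, where Krt8 and Krt18 stood at 0.14 and 0.11, Gata2 fell to -2.68. It was the 1 call among 12 trophoblast markers there, whose median was -0.04, beside 0.133% of all genes called lower.

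Fibroblasts make vimentin. In Suz12-KO, where Vim rose, the authors' deposited table has values for 6 fibroblast markers, all below 0, from -1.03 to -0.10, with 0 calls. Over all genes 46.4% stood above 0 there and 0.200% were called. In Ezh2-WT, where Vim was lower, 6 markers had values and all stood below 0 too, from -0.86 to -0.11, with 0 calls. For all genes the shares above 0 and called were 48.2% and 0.607% there. In Ring1A+B-DKO, where Vim fell, 9 of 9 stood above 0, with a median of 0.53, and Thy1 and Col5a1 rose to 1.66 and 1.33. These 3 comparisons share the E14-WT libraries. In Ezh2-KO, where Vim stood at 1.09, 1 of 5 markers stood above 0, with a median of -0.28 and 0 calls. The shares of all genes above 0 and called were 47.8% and 0.177% there. The part of fibroblast markers in the values of Vim was not tested. Lum, Postn and Dpt had no value in any comparison. Of 10 neural progenitor markers with a value in Ring1A+B-DKO, Olig2 and Ncam1, a neural adhesion gene, fell, the latter to -1.34, and 0 rose, with a median of 0.26 beside the 1.29 of Nes. Pax6, a neural transcription factor, stood at 1.47 without a call. Of 12 embryonic stem cell genes Klf4 rose to 1.04 and Sall4 fell to -1.46, with a median of -0.13, and Nanog was lower in Ezh2-WT, at -1.15.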

How the data were processed

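The submitters' processing notes name TopHat, featureCounts, DESeq2 and GRCm38 (mm10). Their versions and settings, any use of strand and how calls were made were not given in the sources used here. Per the labels' protocols, small RNA was removed and ribosomal RNA depleted before fragmentation. The authors deposited log2 fold changes and a call for Ensembl release 72 identifiers, per the file headers. With no values per sample, the planned count test was not run, no p-value was computed and depth is unknown. The design text calls the replicates biological.

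A gene with reads in the named group and none in its control must be positive if a column is group over control. All 922 such genes were in Ezh2-KO, whereas all 1064 for Suz12-KO, all 2259 for Ring1A+B-DKO and all 1170 for Ezh2-WT were negative, so these 3 signs were turned. The 2259 genes had a median absolute value of 0.20, so values understate changes of genes with few reads.

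GENCODE mouse release 21 gave symbols for 36602 of 38355 identifiers, and Krt85 and Eppk1 had no match. Transcripts at 90% identity over 50% of the shorter one (blastn 2.17.0) were Krt8-ps for Krt8 (98.6% over 941 nt) and Gm5200 for Krt18 (90.5% over 1267 nt), neither in the table. Krt7 and Krt8 overlap Gm671 and Gm36026 on the opposite strand, so reads may be mixed.

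Members, lists and the rule for named genes (members, deleted genes, called list genes and a few more per list, the 5 nearest genes, neighbours within 50 kb) were chosen with earlier results of these data known, and further list genes after their values were seen. Python 3.11.15, numpy 2.4.6, pandas 2.3.3 and matplotlib 3.10.9 were used. The closing section gives the effect of other thresholds, centring, signs and controls.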

Additional observations from a re-analysis of the deposited data

How the results depend on the processing

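No paired analysis was possible because no value per sample is given, and leaving out each replicate was not run for the same reason. By size alone, the count of 0 members in Ezh2-KO became 2 at 0.58 and 1 at 1, and 1 at 1 when centred on all or on protein-coding genes. The count of 1 in Suz12-KO became 2 at 0.58 and 0 at 1.5, and that of 1 in Ezh2-WT became 3 at 0.58. The 4 in Ring1A+B-DKO became 6, 6 and 5 at 0.58, 1 and 1.5. With the sign of the headers, the counts of 1, 4 and 1 in Suz12-KO, Ring1A+B-DKO and Ezh2-WT stay and every direction turns. Vim would then stand at -1.44, 3.57 and 1.92, and Krt7, Krt8 and Krt18 at -1.64, -2.62 and -3.10 in Ring1A+B-DKO. Centring on the median of all genes moved each value by less than 0.1. With Ezh2-WT as the control of Suz12-KO, Nes would stand at 0.69, Lmna at 0.27, Krt7 at -0.93, Krt8 at -0.62, Krt18 at -0.67 and Krt19 at -0.02. Of 56 list medians, 22 moved by 0.1 or more when only values that no other gene shares were used, and 4 changed sign. These were type I keratins in Suz12-KO (-0.06 to 0.49), type III, type IV and lens filaments in Suz12-KO (-0.04 to 0.33), trophoblast markers in Ezh2-KO (-0.04 to 0.09) and lamina partners in Ezh2-KO (-0.04 to 0.01). Centring turned type II keratins in Suz12-KO from -0.01 to 0.01. The cause was not tested.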
